A study of Homo sapiens with 32 samples.

Results

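Transcript levels of 10 genes of the NOTCH pathway were followed through TGFβ1 treatment of MCF10A cells with intact or edited JUNB. The genes were 3 receptors (NOTCH1, NOTCH2 and NOTCH3), 3 ligands (JAG1, JAG2 and DLL1), 3 genes of the HES and HEY families of NOTCH targets (HES1, HES4 and HEY1) and the nuclear coactivator MAML2. They were taken by symbol, by matching the Ensembl identifiers of the count table to GENCODE 44, and each of the 10 symbols was found once among the 17788 genes of the table. Gene positions are those of GENCODE on GRCh38. All 10 passed the filter on low counts, which left 14865 genes for testing.

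The NOTCH pathway signals between touching cells. A ligand of the Jagged or Delta-like type on one cell binds a NOTCH receptor on its neighbour, metalloproteases of the ADAM family and the γ-secretase complex then cut the receptor, and its intracellular domain enters the nucleus. There it joins the DNA-binding protein RBPJ and a Mastermind protein such as MAML2, and transcription of target genes of the HES and HEY families begins. In the mammary epithelium the pathway is known for its part in luminal cell fate, and JAG1 and HEY1 are known to respond to TGFβ in epithelial cells.

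MCF10A is a non-tumorigenic, immortalized human mammary epithelial cell line, grown in medium with EGF, hydrocortisone, cholera toxin, insulin and horse serum. The 32 RNA-seq libraries came from 4 single cell-derived clones of it, namely clones 27 and 2 with wild-type JUNB (WT) and clones 1 and 65, labelled JUNB knock-out and called mut here because an extended deletion in JUNB left a smaller polypeptide that TGFβ1 can still induce. JUNB belongs to the JUN family, whose proteins form AP-1 dimers. Each clone received TGFβ1 at 5 ng/ml for 6, 24 or 72 h or, per the study, solvent (BSA in PBS) for 72 h. All samples were harvested at the same time after seeding. There were 2 replications, so that each of the 8 groups held 4 libraries. Groups that differ in genotype therefore also differ in clone, and effects of the JUNB edit and of the choice of 2 clones per genotype cannot be told apart. Clone and replication together are called a series and written, for instance, 27-2. Values of WT libraries are given in the order 27-1, 27-2, 2-1 and 2-2, and those of mut libraries in the order 1-1, 1-2, 65-1 and 65-2.

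Library totals lay between 39702412 and 54651906 counts, and 3 counts corresponded to 0.0549 to 0.0756 CPM, the counts of a gene per 1000000 counts of its library. JUNB transcripts were counted in both genotypes (89.7 to 117 CPM in WT and 69.2 to 172 CPM in mut solvent libraries), so that the level of the targeted gene did not check the labels. All 5 epithelial markers checked were present. Over the 32 libraries KRT5 held 3262 to 8158, KRT14 181 to 2189, TP63 64.7 to 152, CDH1 147 to 599 and EPCAM 9.23 to 82.7 CPM. CDH1 and EPCAM are not markers of the basal type alone. The summed level of the 5 was 5754 to 7677 CPM in WT and 7783 to 9279 CPM in mut solvent libraries. Of 5 markers of leukocytes, endothelium and fibroblasts, PTPRC did not exceed 0.0498 CPM, DCN lay between 4.34 and 33.5 CPM, and PECAM1, CDH5 and LUM were not among the rows of the table. The luminal marker ESR1 stayed at or below 1.22 CPM, and PGR was not among the rows. After 72 h the summed epithelial markers lay at 4262 to 5594 CPM in WT and 6370 to 8557 CPM in mut libraries. DCN, nearly all of the list of other cell types, lay at 4.92 to 15.2 and 25.6 to 33.5 CPM. The part of these shifts in the results below was not tested. The series 27-2 stood apart at all times: it held 5.70 to 6.49 CPM of EP300, a histone acetyltransferase of the NOTCH nuclear complex, while the other WT series held 34.4 to 39.0 CPM. Results that rest on this series are given with and without it.

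The gene models and their levels per exon length ordered the members. In WT solvent libraries, HES1 stood highest with 24.9 CPM per kilobase of annotated exon, followed by NOTCH1 (20.8), JAG2 (12.9), JAG1 (11.6), NOTCH2 (10.1), HES4 (6.29), MAML2 (3.45), NOTCH3 (3.34), HEY1 (0.516) and DLL1 (0.239). Among neighbours in this order, HES1 and NOTCH1, JAG2 and JAG1, and MAML2 and NOTCH3 did not differ beyond the sum of their SDs, while the other neighbours did. After 24 h of TGFβ1 the first place in WT cells went to JAG1 with 26.7 CPM per kilobase, while HES1 (17.6) came next and NOTCH1 (11.5) lay level with NOTCH2 (11.4). In mut cells HES1 kept the highest value per kilobase at all 4 treatment states (27.1, 27.2, 26.5 and 24.7). Exon length counts every annotated exon of a gene and not the transcripts present, so that the order is approximate.

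Before the single genes, the sequence in front of HES1, the best-known NOTCH target, is shown, because the binding core of RBPJ, the DNA-binding partner of every NOTCH receptor, stands there as a pair. The 250 bases upstream of the RefSeq start of HES1 (GRCh38.p14, chr3:194135898-194136147, plus strand) are printed 5′ to 3′ with each TGGGAA in capitals. For HES4, 30 bases around its single match are printed in the same way (chr1:1000156-1000185, minus strand).
HES1: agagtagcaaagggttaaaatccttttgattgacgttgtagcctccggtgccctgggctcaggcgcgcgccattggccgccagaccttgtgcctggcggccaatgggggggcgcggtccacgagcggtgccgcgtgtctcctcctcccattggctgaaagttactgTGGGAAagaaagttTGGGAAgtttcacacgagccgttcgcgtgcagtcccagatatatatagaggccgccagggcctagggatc
HES4: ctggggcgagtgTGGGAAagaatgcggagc
In HES1 the matches began 84 and 70 bases before the RefSeq start. In HES4 the match began 76 bases before the RefSeq start, and all matches lay on the strand of the gene. In GENCODE, HES4 starts further upstream, at 1000172, which falls on this match. The HES4 match therefore lies upstream of the RefSeq start only. Both strands of the 250 bases before the start were searched in the 8 members that the RefSeq table holds (DLL1 and HEY1 were not matched). TGGGAA was found in 2 of the 8, HES1 and HES4, and in 20.8% of all 35116 promoters of the table. The AP-1 motif TGANTCA was found in none of the 8 and in 6.57% of all promoters, and the SMAD-type motif CAGAC in HES1 and MAML2 and in 38.0% of all. These matches describe the letters of these windows only.

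In WT cells, TGFβ1 was followed by lower NOTCH1, JAG2 and HES1 and by higher JAG1 and MAML2. At 6 h, 3 of the 10 members passed the test (adjusted p under 0.05 in the two-sided limma-voom test), with JAG1 higher and NOTCH1 and JAG2 lower, while 17.0% of all genes tested passed. At 24 h, 6 members passed (3 higher, 3 lower; 52.1% of all genes), and at 72 h again 6 (2 higher, 4 lower; 52.2% of all genes). The shares of members called at 24 and 72 h were close to those of all genes. The median log2 change of the members was -0.14, -0.36 and -0.16 at the 3 times, and that of all genes tested was -0.078, -0.18 and -0.19. Scaling with TMM factors moved the last 3 medians to -0.0041, 0.0014 and -0.029, so that the values given here, under library-size scaling, hold a general shift towards lower levels by about the former medians and are to be read against it. The 3 times of a genotype share their 4 solvent libraries and are not independent of one another.

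In mut cells fewer members passed. At 6 h, 0 of the 10 did so (7.00% of all genes) in the limma-voom test, with 2 members (DLL1 and JAG2) at an unadjusted p under 0.05 and 0 calls with edgeR or DESeq2. With the series as a block, DLL1 alone passed at 6 h (-1.05 ± 0.32, adjusted p = 0.0254), where 2453 of all 14865 genes did. At 24 h, 4 members passed (MAML2 higher; NOTCH1, JAG2 and DLL1 lower; 23.8% of all genes), and these 4 passed in the same directions at 72 h (24.1% of all genes). Median log2 changes of the members were -0.020, -0.0079 and -0.22, against -0.060, -0.098 and -0.087 over all genes tested. The count at 72 h dropped to 2 without solvent 1-1 and without 72 h 1-2, and also when the replications of each clone were summed.

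**Figure D1:**
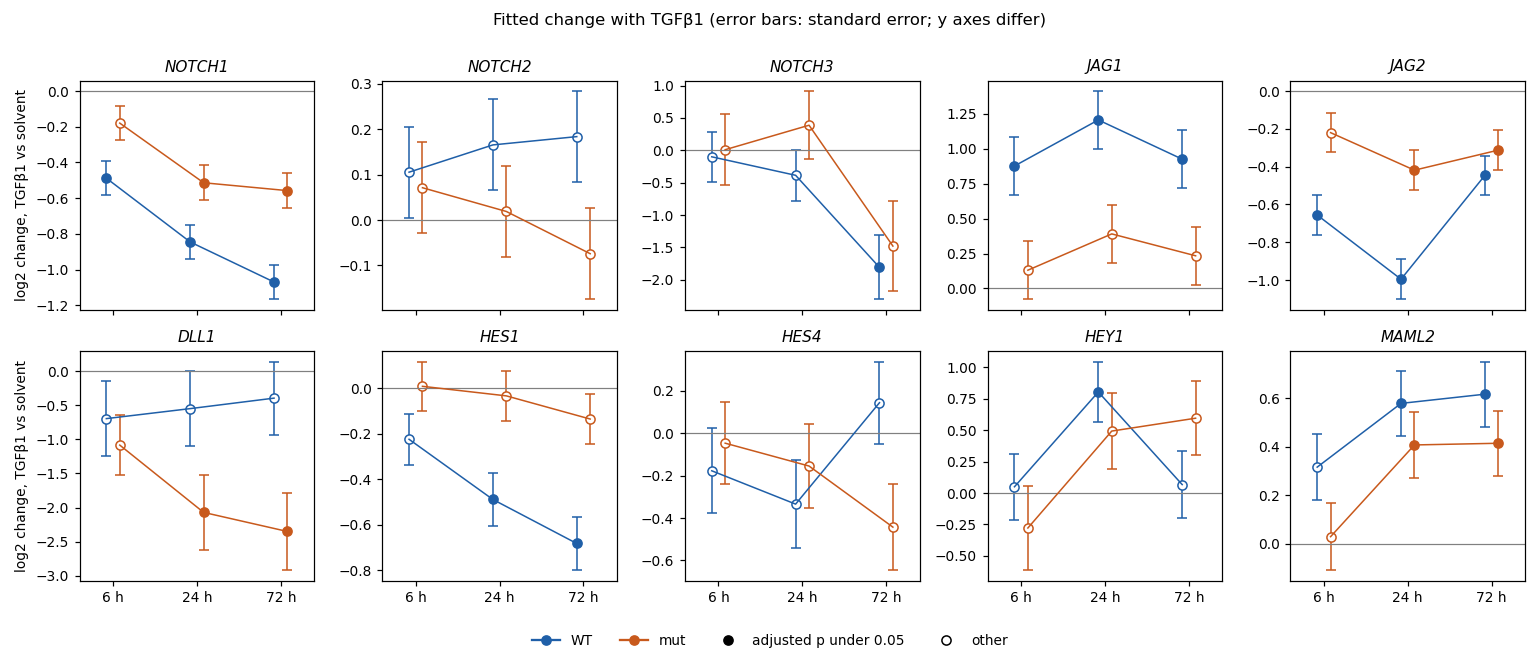
Fitted log2 change (y axis, with standard error; axes differ between genes) of TGFβ1 against solvent at 6, 24 and 72 h (x axis) in WT (blue) and mut cells (orange), with filled points for an adjusted p under 0.05. JAG1 reached a log2 change of 1.21 in WT cells at 24 h, where mut cells reached 0.39, and HES1 reached -0.68 at 72 h in WT cells against -0.14 in mut cells.

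NOTCH1 fell in both genotypes, and NOTCH3 was lower at 72 h in every series of both genotypes. With library-size scaling, all libraries and no series block, NOTCH3 passed the limma-voom test in WT cells only, and NOTCH2 did not pass. NOTCH1 (ENSG00000148400, GRCh38 chr9:136494433-136546048, minus strand), which is the receptor best studied in keratinocytes and mammary epithelium, was measured in WT solvent libraries at 246, 209, 268 and 321 CPM. The levels were 193, 186, 179.5 and 177 CPM at 6 h, 151, 131, 153 and 139.5 CPM at 24 h and 126, 121, 130.3 and 115 CPM at 72 h. None of the WT libraries with TGFβ1 reached the lowest solvent library, and in each of the 4 series the level at 72 h was the lowest. The fitted log2 changes were -0.49 ± 0.097 (SE), -0.85 ± 0.097 and -1.07 ± 0.098, with adjusted p of 7.12e-04, 3.69e-08 and 9.24e-10. Mut libraries held 214, 208, 231 and 229.5 CPM with solvent, 166, 216, 191 and 210.0 CPM after 6 h, 148, 137, 155 and 179.7 CPM at 24 h and 149, 139.7, 169 and 143 CPM at 72 h. Here the solvent and 6 h libraries overlapped, whereas those of 24 and 72 h lay below every solvent library. NOTCH1 fell in mut cells at 24 h (-0.51 ± 0.097, adjusted p = 3.42e-04) and at 72 h (-0.56 ± 0.097, adjusted p = 8.95e-05).

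The decrease of NOTCH1 was smaller in mut than in WT cells at 72 h. The interaction, which is the mut change minus the WT change, was 0.51 ± 0.14 on the log2 scale at 72 h (adjusted p = 0.0143), and it missed the threshold at 24 h (adjusted p = 0.130). With the replications of a clone summed, the adjusted p at 72 h was 0.0694. Between the genotypes, the 4 mut libraries at 72 h all lay above the 4 WT libraries and the difference was 0.29 ± 0.098 (adjusted p = 0.0212). This call was lost with TMM factors (0.20 ± 0.090, adjusted p = 0.0753), edgeR (adjusted p = 0.0721), DESeq2 (adjusted p = 0.0878) and summed replications (adjusted p = 0.0586), without WT 72 h 2-2 (0.25 ± 0.11) and without mut 72 h 65-1 (0.23 ± 0.10). In solvent, the mut level passed as lower only without the series 27-2 (-0.33 ± 0.094, adjusted p = 0.0233), whose solvent library had the lowest NOTCH1 of the WT group, or without that library alone (adjusted p = 0.0226). Without it the interaction at 24 h also passed (0.43 ± 0.13, adjusted p = 0.0318).

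NOTCH2 (ENSG00000134250, chr1:119911553-120100779, minus strand) moved little. This receptor shares long stretches of sequence with the NOTCH2NL genes on the same chromosome, and how reads common to them were assigned is not known, so its level is uncertain. WT libraries held 178, 167, 164 and 169 CPM with solvent, 169, 207, 181 and 176 CPM after 6 h, 191, 189, 193 and 188 CPM at 24 h and 187, 189.8, 189 and 205 CPM at 72 h. All WT libraries at 24 and 72 h lay above all 4 solvent libraries, yet the changes did not pass the test with library-size scaling (adjusted p = 0.171 and 0.126). With TMM factors they did pass (0.34 ± 0.10, adjusted p = 0.00726, and 0.35 ± 0.10, adjusted p = 0.00736), as they did with edgeR and DESeq2 and, under library-size scaling, without the mut library 72 h 65-2 (adjusted p = 0.0384 and 0.0221). Mut libraries held 149, 157, 145 and 152 CPM with solvent, 161, 157, 138 and 179.5 CPM after 6 h, 157, 145, 139 and 171 CPM at 24 h and 162, 166, 154 and 101 CPM at 72 h, so that 65-2 at 72 h was far below the other 31 libraries. NOTCH2 was lower in mut than in WT cells at 24 h (-0.32 ± 0.10, adjusted p = 0.0138) and 72 h (-0.43 ± 0.10, adjusted p = 0.00113), with no overlap between the genotypes at either time. Without mut 24 h 65-1 the difference at 24 h was -0.27 ± 0.11 (adjusted p = 0.0537). At 6 h the difference passed only without mut 72 h 65-2 (adjusted p = 0.0251). The difference at 72 h passed without each single library in turn and ranged from -0.50 to -0.27. In solvent the genotypes did not overlap in NOTCH2 either, though the difference did not pass (-0.17 ± 0.10, adjusted p = 0.284). The interaction for NOTCH2 did not pass at 24 h (-0.15 ± 0.14, adjusted p = 0.596) or 72 h (-0.26 ± 0.14, adjusted p = 0.251).

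The decrease of NOTCH1 also showed against NOTCH2 within libraries. The ratio of NOTCH1 to NOTCH2 counts in WT libraries was 1.54 ± 0.288 (SD, n = 4) with solvent, 1.01 ± 0.0993 after 6 h, 0.755 ± 0.0470 at 24 h and 0.639 ± 0.0568 at 72 h. In mut libraries it was 1.47 ± 0.115, 1.24 ± 0.170, 1.01 ± 0.0838 and 1.07 ± 0.252. Every WT library at 24 and 72 h held fewer NOTCH1 than NOTCH2 counts, and every solvent library of both genotypes held more. The ratios were chosen after the levels were seen and are given without a test.

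NOTCH3 (ENSG00000074181, chr19:15159038-15200995, minus strand), the least abundant of the 3 member receptors, varied widely between the WT series. In WT solvent libraries it stood at 34.4, 9.76, 53.5 and 28.1 CPM, at 6 h at 29.0, 9.77, 45.1 and 33.5 CPM, at 24 h at 29.2, 9.52, 30.4 and 21.9 CPM and at 72 h at 11.3, 5.10, 11.7 and 5.48 CPM. The series 27-2 was the lowest of the WT group at all 4 treatment states, near the level of the mut libraries. Mut libraries held 12.3, 8.15, 8.19 and 7.84 CPM with solvent, 10.4, 8.22, 8.69 and 8.95 CPM after 6 h, 13.4, 10.9, 9.71 and 13.1 CPM at 24 h and 3.50, 3.14, 2.85 and 3.33 CPM at 72 h. All 8 series had less NOTCH3 at 72 h than in solvent, by 0.94 to 2.35 on the log2 scale in WT and by 1.24 to 1.81 in mut series.

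The fitted decrease of NOTCH3 at 72 h was -1.81 ± 0.50 in WT cells (adjusted p = 0.00310). In mut cells it did not pass in the limma-voom test without a block (adjusted p = 0.124). It passed there with the series as a block (-1.50 ± 0.22, adjusted p = 5.06e-06) and without 27-2 (adjusted p = 0.00109). Without a block it also passed with edgeR (adjusted p = 0.0114) and with DESeq2 (adjusted p = 0.00374). The interaction at 72 h was 0.33 ± 0.85 (adjusted p = 0.852), and its sign was not settled, since the value without WT solvent 2-1 was -0.0039. At 24 h the block gave a decrease in WT cells (-0.42 ± 0.12, adjusted p = 0.00503) and an interaction of 0.80 ± 0.21 (adjusted p = 0.00753), neither of which passed without it (adjusted p = 0.438 and 0.531). Leaving out WT solvent 27-2 (adjusted p = 0.0398) or the whole series 27-2 (adjusted p = 0.0497) also gave the WT decrease at 24 h. In the 4 WT series the level at 24 h was below solvent, and in the 4 mut series above it.

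Between the genotypes, NOTCH3 was lower in mut cells in solvent (-1.60 ± 0.47, adjusted p = 0.0237) and at 6 h (-1.49 ± 0.47, adjusted p = 0.0234). It was the only member that passed in solvent, where 12.7% of all genes did. Each of these calls was lost when 1 of 5 libraries was left out, with adjusted p of 0.0522 to 0.0876 in solvent (WT 27-1 or 2-1, mut 65-1, 1-2 or 65-2) and 0.0538 to 0.0788 at 6 h (WT 2-1 or 2-2, mut 65-1, 1-2 or 65-2). Without the series 27-2 the genotypes differed at 24 h (-1.20 ± 0.22, adjusted p = 1.65e-04) and at 72 h (-1.49 ± 0.34, adjusted p = 0.00113) too, where they did not pass with it (adjusted p = 0.166 and 0.162). At 24 h, leaving out its 1 library of that time was enough (adjusted p = 0.0355), and edgeR (adjusted p = 0.0372 and 0.00540) and DESeq2 (adjusted p = 0.0351 and 0.00138) called both times.

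The ligands JAG1 and JAG2 moved in opposite directions in WT cells. JAG1 (ENSG00000101384, chr20:10637684-10673999, minus strand) encodes Jagged 1, a membrane-bound ligand of the NOTCH receptors. Its WT solvent libraries held 97.8, 110.1, 108 and 115 CPM, followed by 144, 186, 225 and 252 CPM at 6 h, 258, 234, 233 and 269 CPM at 24 h and 212, 188, 211 and 206 CPM at 72 h. Every WT library with TGFβ1 lay above every WT solvent library, and at 6 h both libraries of clone 2 lay above both of clone 27. JAG1 rose by 0.88 ± 0.21 on the log2 scale at 6 h (adjusted p = 0.00361), by 1.21 ± 0.21 at 24 h (adjusted p = 1.59e-05), a 2.31-fold increase, and by 0.93 ± 0.21 at 72 h (adjusted p = 4.58e-04).

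In mut cells the JAG1 level varied between replications and did not pass the test at any time. Its libraries held 79.1, 119.9, 76.9 and 133 CPM with solvent, 89.6, 111, 94.0 and 149 CPM after 6 h, 132, 121, 105 and 172 CPM at 24 h and 89.7, 202, 95.9 and 107 CPM at 72 h. Solvent and treated libraries overlapped at all 3 times, and the value of 202 CPM in 72 h 1-2 lay within the range of the WT libraries. With library-size scaling the adjusted p was 0.771, 0.179 and 0.451, and with the series as a block an increase passed at 24 h (0.39 ± 0.15, adjusted p = 0.0483). JAG1 was lower in mut than in WT cells at 6 h (-0.86 ± 0.21, adjusted p = 0.00320), 24 h (-0.93 ± 0.21, adjusted p = 7.80e-04) and 72 h (-0.80 ± 0.21, adjusted p = 0.00259), and the solvent levels did not pass as different (adjusted p = 0.785). At 24 h the highest mut library, at 172 CPM, lay below the lowest WT library, at 233 CPM, whereas single mut libraries reached into the WT range at 6 and 72 h.

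Whether the JAG1 response itself differed between the genotypes depended on how series were treated. The interaction was -0.82 ± 0.29 at 24 h (adjusted p = 0.0761) and -0.69 ± 0.29 at 72 h (adjusted p = 0.123), neither past the threshold. With the series as a block both passed, at -0.82 ± 0.21 (adjusted p = 0.00727) and -0.69 ± 0.21 (adjusted p = 0.0187). Without the block, the interaction at 72 h passed when mut 72 h 1-2 was left out (-0.96 ± 0.25, adjusted p = 0.0120), and the one at 24 h passed without mut 24 h 65-2 (-0.95 ± 0.30), mut 72 h 1-2 (-0.82 ± 0.24) or mut solvent 65-1 (-0.94 ± 0.30).

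JAG2 (ENSG00000184916, chr14:105140982-105168824, minus strand), the second Jagged ligand, fell in both genotypes. WT libraries held 73.0, 79.7, 85.1 and 91.2 CPM with solvent, 57.9, 62.7, 48.1 and 42.1 CPM after 6 h, 38.7, 40.2, 43.2 and 42.7 CPM at 24 h and 68.6, 57.5, 65.4 and 50.8 CPM at 72 h. All treated WT libraries lay below all solvent ones, with the lowest group mean at 24 h and a partial return at 72 h. The log2 changes were -0.66 ± 0.10 (adjusted p = 6.50e-05), -1.0 ± 0.11 (adjusted p = 1.27e-08) and -0.45 ± 0.10 (adjusted p = 6.61e-04). In mut libraries the levels were 71.0, 71.9, 68.0 and 63.9 CPM with solvent, 53.3, 70.1, 56.8 and 57.1 CPM after 6 h, 48.9, 50.4, 51.2 and 55.1 CPM at 24 h and 61.9, 48.2, 57.4 and 54.6 CPM at 72 h. Apart from 1-2 at 6 h, every treated mut library lay below the lowest mut solvent library. JAG2 fell in mut cells by 0.42 ± 0.11 at 24 h (adjusted p = 0.00488) and by 0.31 ± 0.10 at 72 h (adjusted p = 0.0281).

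At 24 h JAG2 was the 1 member whose interaction passed without a series block (0.58 ± 0.15, adjusted p = 0.0149), where 9.65% of all genes passed. With the series as a block, HES1, JAG1 and NOTCH3 passed as well. In WT series JAG2 fell by 0.92 to 1.09 on the log2 scale and in mut series by 0.21 to 0.54. In solvent every mut library held less JAG2 than every WT library, though the difference did not pass (-0.26 ± 0.10, adjusted p = 0.101). This solvent difference is part of the interaction. With TMM factors the interaction was 0.49 and still passed, and with summed replications its adjusted p was 0.0925. Mut cells held more JAG2 than WT cells at 24 h (0.32 ± 0.11, adjusted p = 0.0233), a call that was lost with TMM factors (0.23 ± 0.10, adjusted p = 0.0813), edgeR (adjusted p = 0.0722), DESeq2 (adjusted p = 0.0589) and summed replications (adjusted p = 0.0725), and without WT 24 h 27-1 (0.29 ± 0.12), WT 24 h 27-2 (0.31 ± 0.12) or mut 24 h 65-2 (0.29 ± 0.12). The decrease in mut cells at 72 h was lost with TMM factors (-0.24 ± 0.098, adjusted p = 0.0900), edgeR (adjusted p = 0.102), DESeq2 (adjusted p = 0.0991) and summed replications (adjusted p = 0.100), and without solvent 1-1 (-0.30 ± 0.11), solvent 1-2 (-0.29 ± 0.11), 72 h 1-2 (-0.24 ± 0.11) or 72 h 65-2 (-0.31 ± 0.11).

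The ratio of both Jagged ligands moved accordingly. The ratio of JAG1 to JAG2 counts was 1.31 ± 0.0582 (SD, n = 4) in WT libraries with solvent, 4.03 ± 1.60 after 6 h, 6.05 ± 0.554 at 24 h and 3.42 ± 0.436 at 72 h. Per exon length, JAG2 was the higher of both in WT solvent and JAG1 at all later times. In mut libraries the count ratios were 1.50 ± 0.469, 1.88 ± 0.484, 2.57 ± 0.457 and 2.31 ± 1.27, the last of them with a single high library, 1-2. These ratios are likewise a description without a test.

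DLL1 (ENSG00000198719, chr6:170282206-170306565, minus strand), a ligand of the Delta-like type, was scarce. It overlaps FAM120B on the opposite strand, and as the library kit keeps no strand information, reads of the shared stretch could come from either gene. WT libraries held 1.82, 0.477, 0.676 and 0.680 CPM with solvent, 0.870, 0.423, 0.423 and 0.422 CPM after 6 h, 1.04, 0.639, 0.284 and 0.433 CPM at 24 h and 1.96, 0.728, 0.699 and 0.137 CPM at 72 h, with the highest value at each time in 27-1. In mut libraries the values for the same states were 1.69, 1.53, 1.56 and 1.43 CPM, 0.421, 1.45, 0.688 and 0.684 CPM, 0.569, 0.457, 0.434 and 0.140 CPM and 0.454, 0.276, 0.427 and 0.134 CPM. The lowest values, in WT 72 h 2-2, mut 24 h 65-2 and mut 72 h 65-2, rested on 6 counts each. All mut libraries at 24 and 72 h lay below all mut solvent libraries, and DLL1 fell by 2.07 ± 0.55 at 24 h (adjusted p = 0.00736) and by 2.35 ± 0.57 at 72 h (adjusted p = 0.00290). No change passed in WT cells (adjusted p = 0.448, 0.425 and 0.562). The interaction at 72 h was -1.96 ± 0.78 (adjusted p = 0.0978). It passed with the series as a block (-2.13 ± 0.55, adjusted p = 0.00645), with DESeq2 (adjusted p = 0.0308) and without WT 72 h 2-2 (-2.63 ± 0.66, adjusted p = 0.0127), and ranged from -2.63 to -1.41 when single libraries were left out. Between the genotypes DLL1 did not pass at 72 h (adjusted p = 0.199), except without WT 72 h 2-2 (adjusted p = 0.0150), with edgeR (adjusted p = 0.0342) or with DESeq2 (adjusted p = 0.0187).

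Among the target genes, HES1 fell in WT cells, with no call in mut cells, and was higher in mut cells at every time with TGFβ1. HES1 (ENSG00000114315, chr3:194136148-194138732, plus strand) encodes a basic helix-loop-helix repressor and is the gene whose upstream sequence with 2 TGGGAA cores is printed above. WT libraries held 50.7, 40.8, 56.8 and 56.4 CPM with solvent, 43.3, 34.0, 52.4 and 46.6 CPM after 6 h, 39.3, 32.1, 39.1 and 34.6 CPM at 24 h and 32.2, 29.7, 33.5 and 31.3 CPM at 72 h. In each of the 4 WT series the level at 6 h was below solvent, that at 24 h below 6 h, and that at 72 h below 24 h. HES1 fell by 0.49 ± 0.11 at 24 h (adjusted p = 6.89e-04) and by 0.68 ± 0.12 at 72 h (adjusted p = 1.88e-05). At 6 h the change did not pass (adjusted p = 0.182), but it did with the series as a block (-0.22 ± 0.066, adjusted p = 0.0147) and without WT solvent 27-2 (-0.33 ± 0.11, adjusted p = 0.0415).

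Mut libraries held 54.6, 48.6, 63.0 and 56.9 CPM of HES1 in solvent, 53.5, 55.4, 62.4 and 52.5 CPM at 6 h, 51.8, 53.5, 63.5 and 49.4 CPM at 24 h and 48.1, 47.0, 56.6 and 51.7 CPM at 72 h. Treated and solvent libraries overlapped at every time, and no change passed (adjusted p = 0.981, 0.856 and 0.390). The interaction was 0.55 ± 0.16 at 72 h (adjusted p = 0.0235). At 24 h it was past the threshold with the block (0.46 ± 0.093, adjusted p = 0.00117) and without 27-2 (0.50 ± 0.13, adjusted p = 0.0214), but not with all libraries taken as independent (adjusted p = 0.0659). Of single libraries, leaving out WT solvent 27-2, WT 6 h 27-2 or mut solvent 65-1 brought it past the threshold, with adjusted p of 0.0204 to 0.0421. The interaction at 72 h had adjusted p of 0.0513 with TMM factors and 0.0939 with summed replications, and it was lost without WT solvent 2-1 (0.49 ± 0.17), WT solvent 2-2 (0.50 ± 0.17), mut solvent 1-2 (0.48 ± 0.16) or mut 72 h 65-1 (0.50 ± 0.16), with adjusted p of 0.0540 to 0.0568. With the block it was 0.55 as well, and TMM factors together with the block left it past the threshold.

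HES1 was higher in mut than in WT cells at all 3 times with TGFβ1. The difference was 0.36 ± 0.11 at 6 h (adjusted p = 0.0190), 0.59 ± 0.11 at 24 h (adjusted p = 2.09e-04) and 0.68 ± 0.12 at 72 h (adjusted p = 3.61e-05), with no overlap between the genotypes at any of them, although at 6 h the highest WT library (52.4 CPM) almost touched the lowest mut library (52.5 CPM). In solvent the genotypes overlapped (adjusted p = 0.490). The call at 6 h was lost without the series 27-2 (0.24 ± 0.093, adjusted p = 0.0666), without its 1 library of that time (adjusted p = 0.116), without mut 6 h 65-1 (0.31 ± 0.12) and with summed replications (adjusted p = 0.0687), whereas those at 24 and 72 h passed without each single library in turn, at 0.51 to 0.63 and 0.63 to 0.71.

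HES4 (ENSG00000188290, chr1:998962-1000172, minus strand), a relative of HES1 present in humans but not in mice, passed the test at no time of TGFβ1 in either genotype (adjusted p of 0.179 to 0.620 in WT and 0.114 to 0.921 in mut cells). WT libraries held 6.71, 5.82, 8.31 and 7.28 CPM with solvent and 11.1, 5.78, 8.30 and 6.79 CPM at 72 h, with 6 and 24 h libraries at 5.29 to 6.92 and 4.96 to 6.24 CPM. The mut libraries held 8.04, 6.20, 7.79 and 6.40 CPM with solvent and 6.02, 5.22, 4.30 and 5.23 CPM at 72 h, with 3.81 to 8.56 and 5.50 to 7.12 CPM between, and at 72 h all 4 lay below all 4 solvent libraries without passing the test except when mut 6 h 1-1 was left out (adjusted p = 0.0454). At 72 h HES4 was lower in mut than in WT cells (-0.57 ± 0.20, adjusted p = 0.0241), although the groups overlapped. The call was lost without WT 72 h 27-1 (-0.40 ± 0.20), WT 72 h 2-1 (-0.54 ± 0.22) or mut 72 h 65-1 (-0.49 ± 0.21).

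HEY1 (ENSG00000164683, chr8:79762371-79767857, minus strand), a repressor of the related HEY family, showed a peak at 24 h in WT cells. Its WT libraries held 2.68, 3.64, 2.77 and 2.24 CPM with solvent, 2.61, 3.43, 3.46 and 2.32 CPM after 6 h, 4.10, 5.41, 4.72 and 5.58 CPM at 24 h and 3.34, 2.75, 2.35 and 3.36 CPM at 72 h. The 4 libraries at 24 h lay above all other WT libraries, and HEY1 rose by 0.80 ± 0.24 (adjusted p = 0.00599), while at 6 and 72 h it was near the solvent level (adjusted p = 0.932 and 0.850). In the same order of states, mut libraries held 1.69, 3.59, 0.926 and 1.49 CPM, 1.59, 1.21, 1.15 and 1.67 CPM, 2.45, 2.49, 1.74 and 2.95 CPM and 1.89, 3.62, 1.66 and 3.55 CPM, with no change past the threshold (adjusted p = 0.680, 0.251 and 0.145). Solvent 1-2 was the high value of the mut solvent group. Without it, HEY1 passed as higher at 72 h (0.93 ± 0.30, adjusted p = 0.0259) and as lower in mut than in WT solvent libraries (-1.06 ± 0.30, adjusted p = 0.0208). With all libraries, HEY1 was lower in mut cells at 6 h (-1.05 ± 0.31, adjusted p = 0.0142) and 24 h (-1.04 ± 0.25, adjusted p = 0.00181), with no overlap at either time; at 6 h the adjusted p without mut 65-1 was 0.0538. The interaction for HEY1 did not pass at any time (adjusted p = 0.999, 0.696 and 0.424).

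MAML2 (ENSG00000184384, chr11:95976598-96343195, minus strand), which bridges the receptor's intracellular domain to the transcription machinery, rose in both genotypes. WT libraries held 27.7, 29.3, 21.4 and 19.8 CPM with solvent, 28.2, 35.2, 30.7 and 27.3 CPM after 6 h, 35.9, 39.9, 34.9 and 34.4 CPM at 24 h and 36.1, 40.0, 32.2 and 41.0 CPM at 72 h, and the mut libraries, for the same states, 21.6, 26.9, 22.6 and 25.5 CPM, 27.5, 23.2, 24.2 and 23.6 CPM, 33.0, 28.2, 31.8 and 35.0 CPM and 35.7, 37.7, 34.5 and 22.2 CPM. From 24 h on, every treated library lay above every solvent library of its genotype except mut 72 h 65-2, the library that was also low in NOTCH2. The increase was 0.58 ± 0.13 at 24 h (adjusted p = 6.02e-04) and 0.62 ± 0.13 at 72 h (adjusted p = 3.31e-04) in WT cells. The mut values were 0.41 ± 0.13 (adjusted p = 0.0274) and 0.42 ± 0.13 (adjusted p = 0.0231). Both mut calls were lost with summed replications (adjusted p = 0.0750 and 0.0598). The mut call at 24 h was also lost without solvent 1-1 (0.36 ± 0.15), solvent 65-1 (0.38 ± 0.15), 24 h 1-1 (0.39 ± 0.15) or 24 h 65-2 (0.36 ± 0.15), and the one at 72 h without solvent 1-1 (0.36 ± 0.14), solvent 65-1 (0.39 ± 0.15), 72 h 1-1 (0.36 ± 0.14), 72 h 65-1 (0.38 ± 0.14) or 72 h 1-2 (0.33 ± 0.14). The genotypes did not pass as different in MAML2 at any treatment state (adjusted p of 0.115 to 0.973), apart from 6 h without mut 72 h 65-2 (adjusted p = 0.0440). Without the same library, or with DESeq2, the WT increase passed at 6 h as well (adjusted p = 0.0435 and 0.0464).

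**Figure D2:**
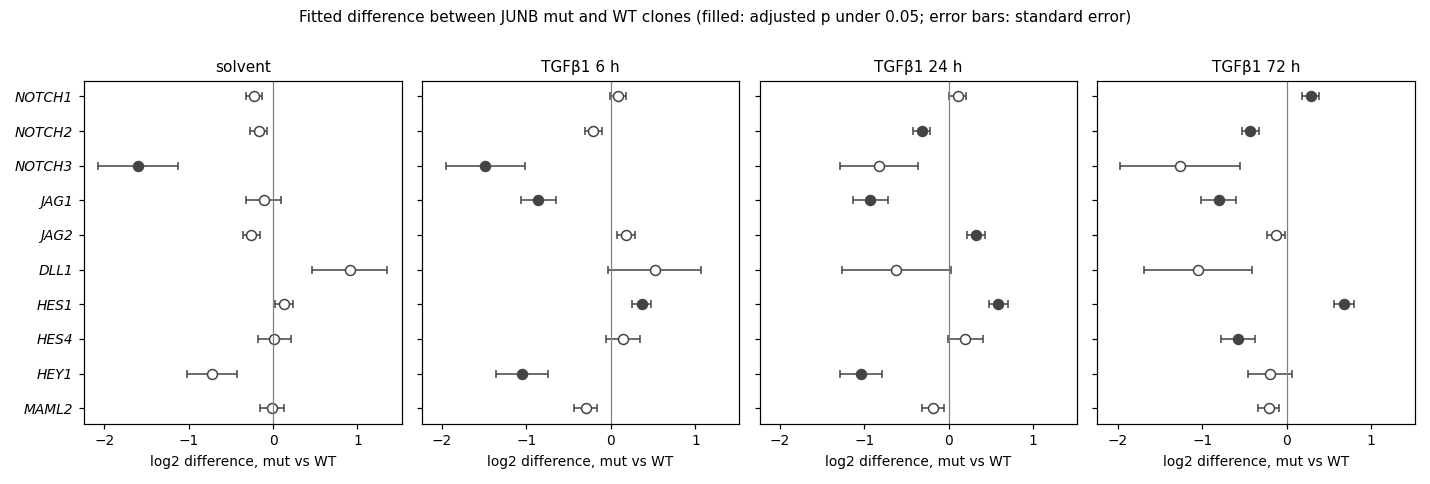
Fitted log2 difference between mut and WT cells (x axis, with standard error) for each of the 10 genes (rows) in solvent and after 6, 24 and 72 h of TGFβ1 (panels), with filled points for an adjusted p under 0.05. NOTCH3 alone passed in solvent, JAG1 was lower by 0.80 to 0.93 at the 3 later states, and HES1 was higher by 0.36, 0.59 and 0.68.

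Counted over all members, the genotypes differed in 1 gene in solvent (NOTCH3; 12.7% of all genes), 4 genes at 6 h (HES1 higher in mut, NOTCH3, JAG1 and HEY1 lower; 21.4% of all genes), 5 genes at 24 h (JAG2 and HES1 higher, NOTCH2, JAG1 and HEY1 lower; 36.9% of all genes) and 5 genes at 72 h (NOTCH1 and HES1 higher, NOTCH2, JAG1 and HES4 lower; 39.2% of all genes). With TMM factors, 4 members passed at 24 h and 4 at 72 h, each time 1 higher and 3 lower. Over all 14865 genes, 4939 and 5429 did so. The members' median difference was -0.14, -0.062, -0.25 and -0.32, against -0.0075, 0.016, 0.093 and 0.095 over all genes tested. The change with TGFβ1 differed between the genotypes in 0 members at 6 h (0.0740% of all genes; 3 members at an unadjusted p under 0.05; 0 with edgeR or DESeq2), in JAG2 at 24 h (9.65% of all genes) and in NOTCH1 and HES1 at 72 h (12.3% of all genes). With the series as a block, 4 members passed at 24 h (HES1, JAG1, JAG2 and NOTCH3) and 4 at 72 h (NOTCH1, JAG1, DLL1 and HES1). Over all 14865 genes, 2782 and 3488 passed with the block, against 1434 and 1831 without it. With the replications of each clone summed, 0 members passed at either time, and 314 and 626 of all 15640 genes did.

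Beyond the members, 49 genes of the pathway were followed in 6 lists, of which 45 were tested. At 72 h in WT cells 21 of the 45 passed, 8 higher and 13 lower, against 52.2% of all genes, and their median log2 change was -0.12. In mut cells 11 passed at that time (5 higher, 6 lower, median -0.083), against 24.1% of all genes. The genotypes differed in solvent in 5 of the 45 (4 higher in mut, 1 lower), which is 11.1% against 12.7% of all genes, and the interaction at 72 h passed in 6 (3 higher, 3 lower), which is 13.3% against 12.3%. The shares called at 72 h were thus 46.7% in WT and 24.4% in mut cells.

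In the list of other receptors, ligands and targets, 3 of 8 tested genes passed in WT cells at 72 h, all lower. Of all genes 52.2% passed, and 5705 of these 7766 calls were lower too. DLK2, a non-canonical Delta-like ligand, lay at 24.6 to 30.2 CPM in WT solvent libraries and at 7.06 to 11.2 CPM at 72 h (-1.66 ± 0.24, adjusted p = 1.36e-06) and also fell in mut cells, with 40.0 to 53.0 CPM in solvent and 14.6 to 31.0 CPM at 72 h (-1.26 ± 0.18, adjusted p = 7.87e-06). NRARP, a NOTCH target that feeds back on the pathway, fell in WT cells, with 2.43 to 3.15 CPM in solvent and 0.411 to 1.12 CPM at 72 h (-2.07 ± 0.39, adjusted p = 6.42e-05). In mut cells it was at 2.27 to 3.09 CPM in solvent and 1.01 to 2.38 CPM at 72 h (adjusted p = 0.0690), and the interaction did not pass (adjusted p = 0.0661). HES7, a further HES gene, fell in WT cells by 1.25 ± 0.31 (adjusted p = 0.00142). HES2, named after its values were seen, was lower in mut than in WT solvent libraries (26.2 to 31.2 against 47.2 to 81.1 CPM, -1.35 ± 0.17, adjusted p = 1.76e-06). Likewise named after their values were seen, DLK2 (0.74 ± 0.18, adjusted p = 0.00472) and HES6 (0.53 ± 0.16, adjusted p = 0.0294) were higher in mut solvent libraries. The receptor NOTCH4 was called higher too, but on 4, 2, 5 and 15 counts in WT and 40, 18, 18 and 44 counts in mut solvent libraries, so that no fold is given.

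In the nuclear complex and among the receptor proteases, the shares called in WT cells at 72 h were close to the 52.2% of all genes. Of 10 genes of the nuclear complex, 5 passed in WT cells at 72 h (1 higher; MAML3, CTBP1, KAT2B and SNW1 lower). MAML3, a Mastermind relative of MAML2, fell by 1.12 ± 0.14 (adjusted p = 2.64e-07) in WT cells, the opposite direction to MAML2, and CTBP1, a corepressor, fell by 0.22 ± 0.047 (adjusted p = 3.08e-04), close to the median of all genes. Of 9 protease genes 5 passed (3 higher, 2 lower), among them FURIN, which cleaves the receptor precursor (0.56 ± 0.063, adjusted p = 2.44e-08), and the γ-secretase subunit APH1A (-0.31 ± 0.055, adjusted p = 3.09e-05).

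Genes that modify receptors and ligands included some with changes above 1 on the log2 scale. LFNG, the Lunatic fringe glycosyltransferase that tunes which ligand a receptor answers to, rose in WT cells, with 5.33 to 9.93 CPM in solvent and 14.5 to 17.9 CPM at 72 h (1.28 ± 0.18, adjusted p = 8.74e-07) and in mut cells, with 4.24 to 7.35 and 16.2 to 19.8 CPM (1.55 ± 0.17, adjusted p = 2.35e-07). Among the 5 glycosylation genes, 3 passed in WT cells at 72 h (1 higher, 2 lower), against 52.2% of all genes. The other two were POGLUT1 and POFUT1, which add the first sugars to the receptor. Their changes were higher in mut than in WT cells, with interactions of 0.37 ± 0.12 (adjusted p = 0.0342) and 0.26 ± 0.082 (adjusted p = 0.0334). The WT decrease of POFUT1 (-0.23 ± 0.058) lay close to the median of all genes (-0.19). Interactions of the pathway lists are given with library-size scaling only, where the median interaction of all genes tested was 0.10 at 72 h. NEURL1B, a ubiquitin ligase that drives endocytosis of NOTCH ligands, was the 1 of 4 ligases to pass in WT cells at 72 h, against 52.2% of all genes. WT libraries held 25.1 to 30.1 CPM of NEURL1B in solvent and 57.0 to 86.5 CPM at 72 h (1.34 ± 0.17, adjusted p = 3.46e-07). Mut libraries already held 54.7 to 59.8 CPM in solvent, above all WT solvent libraries (1.09 ± 0.18, adjusted p = 7.07e-05), and reached 62.8 to 96.6 CPM at 72 h. Its interaction was -0.89 ± 0.23 (adjusted p = 0.0119).

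Of 9 genes of receptor turnover and inhibition, 4 passed in WT cells at 72 h (NUMB and NUMBL higher, FBXW7 and DTX4 lower), against 52.2% of all genes. FBXW7, the ubiquitin ligase subunit that targets the NOTCH intracellular domain for degradation, fell by 0.57 ± 0.093 (adjusted p = 9.51e-06) in WT cells, with an interaction of 0.44 ± 0.13 (adjusted p = 0.0249). DTX4, of the Deltex family, fell by 0.67 ± 0.12 (adjusted p = 2.45e-05), and NUMB, an inhibitor of NOTCH signalling, rose by 0.30 ± 0.054 (adjusted p = 2.86e-05), with an interaction of -0.25 ± 0.076 (adjusted p = 0.0305). DTX3L, another Deltex gene, had an interaction of -0.52 ± 0.15 (adjusted p = 0.0258).

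**Figure D3:**
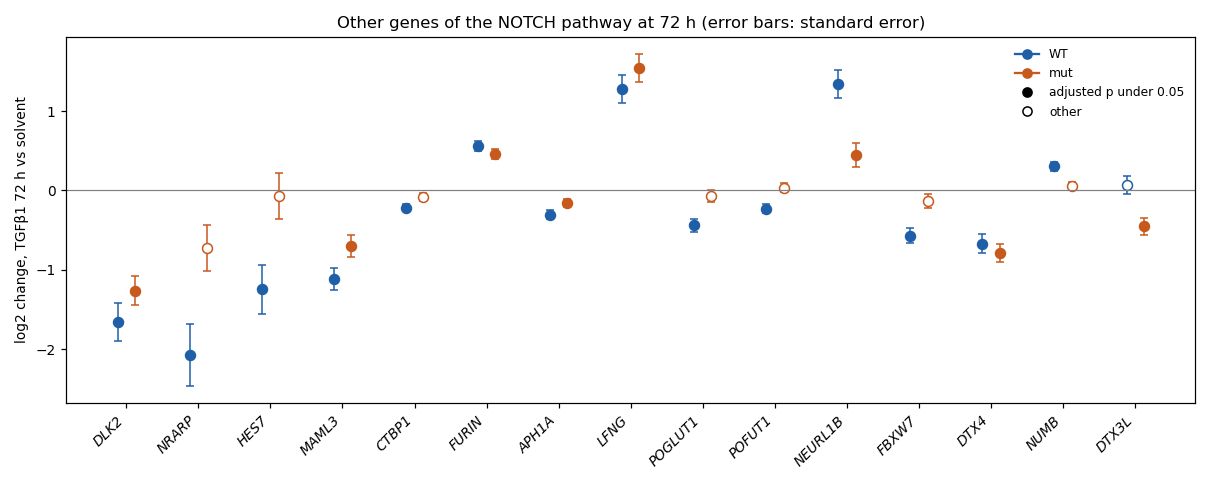
Fitted log2 change with TGFβ1 at 72 h (y axis, with standard error) for 15 genes of the other pathway lists named by rule (x axis), in WT (blue) and mut cells (orange), filled for an adjusted p under 0.05. NRARP had the lowest value in WT cells at -2.07, NEURL1B reached 1.34 in WT against 0.45 in mut cells, and LFNG was high in both at 1.28 and 1.55.

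Each member's closest companions over the 32 libraries were sought by Pearson's r of log2 CPM, as a description. The libraries share genotype and treatment, which all of these correlations contain. NOTCH1 was most like CCDC88C (r = 0.94) and ARHGEF16 (0.94), NOTCH2 like SPAG9 (0.88) and GPATCH2L (0.88), and NOTCH3 like SPRR1B (0.94) and DSG1 (0.90), which encode a cornified-envelope protein and a desmosomal cadherin. JAG1 was most like CCDC71L (0.92) and FGD6 (0.92), and JAG2 like CDC25A (0.92) and NOP2 (0.90), a cell-cycle phosphatase and a nucleolar RNA methyltransferase. For HES1 the closest were PDE9A (0.94) and SCNN1B (0.94), for HEY1 HTR7 (0.85) and CHRNA9 (0.82), for MAML2 ENC1 (0.90) and PLOD2 (0.89), and for HES4 only weaker companions were found, LGALS9 (0.68) and IFI35 (0.65). A mean of 1 CPM was required of members and not of companions, and DSG1 (mean 0.457 CPM) and LGALS9 (0.871 CPM) lay below it. Between members, JAG1 and JAG2 had r = -0.61, NOTCH1 and MAML2 -0.78, and NOTCH1 and HES1 0.62.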

How the data were processed

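RNA was sequenced from 32 MCF10A libraries in 8 groups of 4. Per the study's methods, the authors removed adapters with Trimmomatic, and mapped paired reads to GRCh38 with the Ensembl annotation and counted them per gene with STAR. Tool versions and the strand setting of the counting are not given in the sources used here; the TruSeq kit does not keep strand. The deposited values are whole-number counts per gene, not normalized, for 17788 genes, of which GENCODE 44 named 17763.

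From these counts, CPM and limma voom fits (limma 3.58.1, R 4.3.3) were computed with library-size scaling, as the study did, in 1 model of the 8 groups, after edgeR's filterByExpr (minimum count 10, minimum total 15). Values after ± in parentheses with an adjusted p are standard errors of log2 changes. Tests were two-sided, and p-values were adjusted by Benjamini-Hochberg over all 14865 genes in each of 13 comparisons. The members and lists were chosen with earlier results of these data known. All members were named; of each pathway list, at most 3 called genes of lowest adjusted p at 72 h in WT cells and in the interaction; and for each member above a mean of 1 CPM the 2 genes of highest r of log2 CPM (pseudocount 2). Some genes that these rules name are not reported here.

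The voom script was run on simulated counts with known changes in WT cells at 72 h. The simulated libraries were independent, without clone or series effects, so that this run cannot judge the genotype or interaction calls. Alternatives were TMM factors, edgeR 4.0.16, DESeq2 1.42.0, other filters, the series as a block, summed replications, leaving out each library and leaving out the series 27-2. Labels tie libraries of a series to 1 clone. Deviations from group means correlated at 0.346 on average within a series (48 pairs, lowest 0.0225) and at -0.110 between series of a genotype (144 pairs). The block cannot be used for mut against WT, since a series lies within 1 genotype. Groups are 2 clones with 2 replications each, so p-values measure the spread between these libraries, part of which may be technical. No pair of libraries in a group differed by as little as sampling noise (lowest chi-square per degree of freedom 11.5). Floors of 3 counts cover counting error only. Promoters and motif matches came from RefSeq sequences.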

Additional observations from a re-analysis of the deposited data

Results flagged for a closer look

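In 6 of the 80 sets of 4 libraries formed by a member and a group, 1 library stood apart from the other 3 by Dixon's criterion, which chance meets in about 1 of 20 sets. These libraries were 2-2 of WT at 72 h for NOTCH2 (205 CPM), 1-1 of mut solvent for NOTCH3 (12.3 CPM), 1-2 of mut at 72 h for JAG1 (202 CPM), 27-1 of WT solvent and of WT at 6 h for DLL1 (1.82 and 0.870 CPM), and 1-1 of mut at 6 h for HES4 (3.81 CPM). Without 1-2, the JAG1 interaction at 72 h passed the limma-voom test, as given in the report.

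The change with TGFβ1 differed between the genotypes, by the interaction term, for JAG2 at 24 h (0.58 on the log2 scale, mut minus WT), NOTCH1 at 72 h (0.51) and HES1 at 72 h (0.55). In all 3 cases the decrease in WT cells was the larger one. Under library-size scaling most interactions called over all genes had this sign, 1147 of 1434 at 24 h and 1397 of 1831 at 72 h. The median interaction of all genes tested was 0.084 at 24 h and 0.10 at 72 h. Each adjusted p was above 0.05 when the replications of a clone were summed.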

How the results depend on the processing

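With TMM factors, 1 member passed in the interaction at 72 h against 2 with library-size scaling, and 1291 against 1831 of all 14865 genes. The series as a replicate block gave 1 call instead of 0 in mut cells at 6 h, 4 instead of 1 in the interaction at 24 h and 4 instead of 2 at 72 h, and TMM factors with this block gave 1, 4 and 4. Over all 14865 genes the block gave 2453, 2782 and 3488 calls, and TMM factors with it gave 1950, 2280 and 2783. Summed replications gave 2 instead of 4 calls in mut cells at 72 h and 0 in the interactions at 24 and 72 h. Over all 15640 genes they gave 2408, 314 and 626 calls. Without the series 27-2, 2 members passed between genotypes in solvent instead of 1, and 2 instead of 1 in the interaction at 24 h. Of all 14902 genes then tested, 1604 and 1238 passed. The counts of calls with edgeR, with DESeq2 and with both other filters stayed within 1.5 times those given. Of the member changes reported with a call or an interaction at 72 h, edgeR and DESeq2 each lost 3 calls (JAG2 in mut cells at 72 h, and between the genotypes JAG2 at 24 h and NOTCH1 at 72 h).

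Leaving out single libraries gave 3 to 4 calls in WT cells at 6 h, 6 to 7 at 24 h and 6 at 72 h, and in mut cells 0 at 6 h, 3 to 4 at 24 h and 2 to 4 at 72 h. Between the genotypes it gave 0 to 2 calls in solvent, 1 to 4 at 6 h, 4 to 5 at 24 h and 3 to 5 at 72 h, and in the interactions 0 at 6 h, 1 to 3 at 24 h and 1 to 3 at 72 h. The NOTCH3 interaction at 72 h ranged from -0.0039 to 0.79. The cause was not tested in any of these cases. With library-size scaling, the block changed no other member call than those given with their values in the report. Among the members, depth limited DLL1 most, whose lowest libraries rested on 6 counts, and of the other genes named it limited NOTCH4, which had 2 to 15 counts in WT solvent libraries.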
